A study of Homo sapiens with 4 samples.

Results

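The 8 genes described here encode growth factor receptors, a membrane scaffold and ligands of the epidermal growth factor receptor: EGFR, ERBB2, MET, AXL, EPHA2, CAV1, AREG and HBEGF. They were examined in DU145, an established cell line from a brain metastasis of a prostate cancer. The members are the peaks of DU145 CTCF and DU145 H3K27ac that overlap each gene's hg19 interval widened by 50 kb on each side. This gave 172 of the 86516 peaks in the 2 lists, of which 38 of 36152 were CTCF peaks and 134 of 50364 were H3K27ac peaks. The windows together spanned 1.29 Mb. The series holds 4 libraries: DU145 chromatin pulled down with an antibody to CTCF, DU145 chromatin pulled down with an antibody to H3K27ac, DU145 input and LNCaP input. There is 1 library of each, from formaldehyde-fixed cells for which the labels name no drug, so no value has a replicate error and no test between marks or genes was made. Neither input library was used here beyond its part in the deposited peak values.

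EGFR and ERBB2 are receptor tyrosine kinases of the ERBB family. Ligands such as amphiregulin (AREG) and heparin-binding EGF-like growth factor (HBEGF) are made as membrane-bound precursors, are cut from the cell surface, and bind EGFR. ERBB2 has no known ligand of its own and signals as a partner of the other family members. MET is the receptor of hepatocyte growth factor, AXL the receptor of GAS6, and EPHA2 a receptor of membrane-bound ephrin-A ligands. Caveolin-1 (CAV1) is the main coat protein of caveolae, membrane pits in which several of these receptors are found. H3K27ac, histone H3 acetylated on lysine 27, is found on nucleosomes of promoters and enhancers in use, and CTCF is a DNA-binding protein of insulators and chromatin loop anchors.

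The promoters of 5 of the genes are shown because the peaks at their 5′ ends carry the results that follow. EGFR and EPHA2 had the highest H3K27ac fold enrichments at a 5′ end, MET and HBEGF had a CTCF peak there, and AREG had no CTCF peak in its window. A second RefSeq start of EGFR, farther along the gene, is shown for contrast with the first. Each sequence is the 250 bases before a RefSeq start, from GRCh38.p14 and on the strand of the gene, so its coordinates do not match the hg19 peaks. Capitals mark matches on either strand to the CTCF core (CC, 3 bases of any kind, AGG, 1 base of any kind, GGC), the AP-1 site TGANTCA, the GC box GGGCGG or the TEAD site GGAATG.
EGFR, first start, chr7:55018767-55019016, plus strand: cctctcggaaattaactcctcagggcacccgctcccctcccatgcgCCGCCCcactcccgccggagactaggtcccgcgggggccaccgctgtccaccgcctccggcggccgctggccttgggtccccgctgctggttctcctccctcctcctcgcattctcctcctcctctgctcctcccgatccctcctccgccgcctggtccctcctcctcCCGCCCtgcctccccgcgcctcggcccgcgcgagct
EGFR, second start, chr7:55109589-55109838, plus strand: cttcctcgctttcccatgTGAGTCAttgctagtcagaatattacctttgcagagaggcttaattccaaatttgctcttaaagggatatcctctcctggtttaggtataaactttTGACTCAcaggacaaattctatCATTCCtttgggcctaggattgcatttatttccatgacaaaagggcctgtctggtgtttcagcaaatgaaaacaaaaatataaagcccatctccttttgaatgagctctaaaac
EPHA2, chr1:16156070-16156319, minus strand: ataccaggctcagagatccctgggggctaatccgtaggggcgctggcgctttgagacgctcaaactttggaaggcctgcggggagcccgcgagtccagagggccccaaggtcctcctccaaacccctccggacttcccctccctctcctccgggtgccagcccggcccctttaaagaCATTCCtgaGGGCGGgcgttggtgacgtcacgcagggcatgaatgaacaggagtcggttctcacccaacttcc
MET, chr7:116671946-116672195, plus strand: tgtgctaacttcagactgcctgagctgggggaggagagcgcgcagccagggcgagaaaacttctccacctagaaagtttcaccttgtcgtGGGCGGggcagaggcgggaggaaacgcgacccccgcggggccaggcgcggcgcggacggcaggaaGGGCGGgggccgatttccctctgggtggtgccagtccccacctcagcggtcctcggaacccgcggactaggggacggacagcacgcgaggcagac
HBEGF, chr5:140346604-140346853, minus strand: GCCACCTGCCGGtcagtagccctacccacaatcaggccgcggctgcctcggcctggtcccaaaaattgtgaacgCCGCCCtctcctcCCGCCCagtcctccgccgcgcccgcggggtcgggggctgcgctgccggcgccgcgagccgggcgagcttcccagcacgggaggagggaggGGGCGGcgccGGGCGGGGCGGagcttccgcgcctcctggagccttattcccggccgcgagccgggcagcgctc
AREG, chr4:74444886-74445135, plus strand: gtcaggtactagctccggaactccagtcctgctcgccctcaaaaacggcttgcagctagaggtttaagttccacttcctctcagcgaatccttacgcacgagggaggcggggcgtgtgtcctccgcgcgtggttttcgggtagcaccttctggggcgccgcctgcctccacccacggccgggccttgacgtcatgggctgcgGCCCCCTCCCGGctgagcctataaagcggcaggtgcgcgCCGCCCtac

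Of the first-listed starts of the 8 genes, 7 had a GC box in these 250 bases and ERBB2 had 0 matches to it. The GC box was found in 42.6% of 34788 distinct promoter windows of the same length. The CTCF core was found at HBEGF and AREG, against 4.01% of all such windows. The AP-1 site was found at ERBB2, with 6.59% of all windows holding it, and the TEAD site at EPHA2, with 11.9%. GC content of the first-listed windows lay between 63.2% at EPHA2 and 76.4% at HBEGF, beside a median of 58.0% over all windows. The second start of EGFR had 38.8% GC, 2 AP-1 matches and 1 TEAD match. These matches are letters in a window and no measurement of binding.

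Acetylation was unevenly spread over the 8 genes. H3K27ac peaks covered 22.5% of the EPHA2 window, 20.8% of the AXL window and 13.7% of the EGFR window. Coverage was 9.76% at ERBB2, 6.11% at HBEGF, 4.06% at CAV1, 3.00% at MET and 1.18% at AREG. Thus 3 of 8 windows had at least 10% of their bases under H3K27ac, as did 3.15% of the 30955 bins of 100 kb into which the assembled chromosomes were divided. Bins with no H3K27ac peak made up 63.2% of these, and the windows are longer than a bin. Among peaks with a −log10 q of 10 or more, coverage was 19.2% at EPHA2, 13.1% at AXL and 8.04% at EGFR. Among peaks at or above the median fold of the list, it was 21.0%, 13.6% and 7.77% in the same order, so 2 of 8 windows then had at least 10%, and EGFR was not among them. The EGFR, AXL and EPHA2 windows together held 96 of the 134 H3K27ac peaks and 74.1% of the acetylated bases. Over all 8 windows coverage was 10.3%, against 1.38% of the assembled chromosomes. The windows are centred on genes, and windows around other genes were not analysed here.

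**Figure D1:**
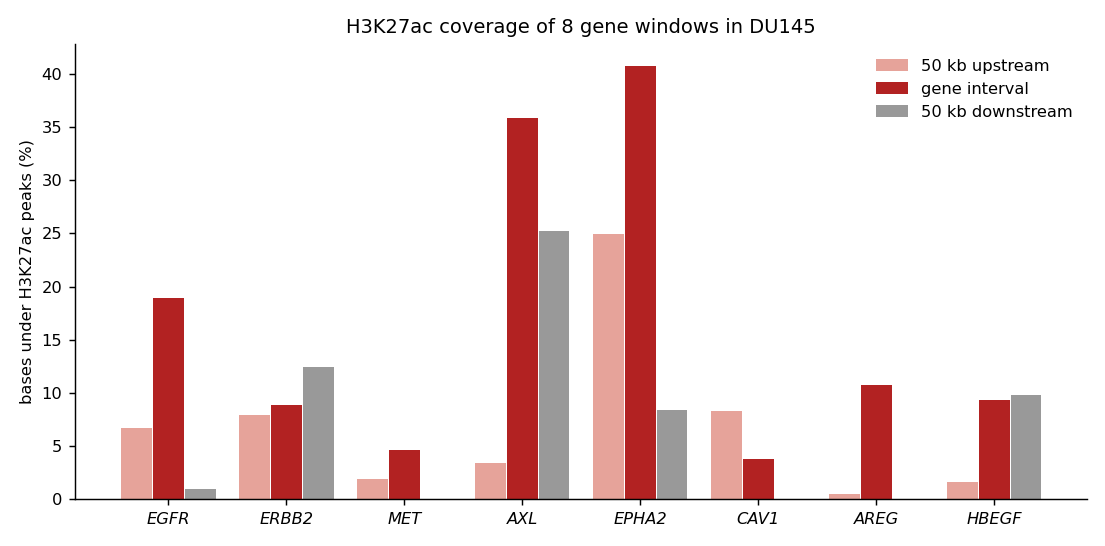
Percent of bases under H3K27ac peaks (y axis) in the 50 kb upstream of each gene, in the gene interval and in the 50 kb downstream, for 1 DU145 library. The gene intervals of EPHA2 (40.8%) and AXL (35.9%) stand highest, and MET, CAV1 and AREG have no bar downstream.

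Taken one by one and pooled over the 8 windows, the H3K27ac peaks were not stronger than the rest of the list. Their median fold enrichment, the authors' deposited ratio of fragment pileup at a summit over the background around it, was 4.13, against 4.55 over all H3K27ac peaks. By window the median was 3.71 at EGFR, 3.86 at AXL, 4.37 at HBEGF, 4.47 at MET and 4.55 at ERBB2. It was higher at EPHA2 (6.94), at AREG (8.26, from 2 peaks) and at CAV1 (16.4, from 3 peaks). A fold of 10 or more was reached by 24 of 134 (17.9%), beside 20.6% of the whole list. There were 48 of 134 peaks with a −log10 q of at least 10, or 35.8% (Wilson 95% interval 28.2 to 44.2), beside 43.4% of the whole list. Widths above 1 kb were found for 35 peaks, or 26.1% (interval 19.4 to 34.1), beside 25.5%. Wilson intervals here and below count each peak as independent. Peaks of a window are neighbours from the same library, so the intervals are likely too narrow. The number of peaks was higher, at 104 per Mb over the 8 windows, against 17.0 per Mb on the autosomes. That background is not centred on genes as the windows are, so the difference is not shown to be particular to these genes. AXL with 182 per Mb, EGFR with 174 and EPHA2 with 152 carried most of that density, whereas CAV1 had 22.1 and AREG 18.2 peaks per Mb. The summits in the windows held between 12 and 283 H3K27ac fragments with a median of 22, and the list as a whole had a median of 23. These fragment numbers were solved from the deposited values, and their intervals cover counting error only.

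All 8 genes had an H3K27ac peak over the 5′ end of their interval. The intervals are rounded to 1 kb, so distances from a 5′ end carry that rounding. The fold enrichments of these 8 peaks ran from 8.33 to 34.9. Each had a −log10 q above 10, and 7 were wider than 1 kb. EPHA2 had the highest, with 34.9-fold and 167 fragments (exact Poisson 95% interval 143 to 194), which ranked 690 in the list. EGFR followed with 28.6-fold and 161 fragments (137 to 188), and AXL with 21.9-fold and 107 fragments (87.7 to 129). The AXL summit lay 7.0 kb past the 5′ end, in a peak of 9257 bases, whereas the other summits lay within 0.7 kb. The AXL values therefore do not describe its 5′ end itself. The intervals of EPHA2 and EGFR overlap widely, so counting error alone does not separate them. CAV1 had 16.4-fold and 87 fragments (69.7 to 107). AREG, MET and ERBB2 were close to each other, at 13.2-fold, 13.0-fold and 12.9-fold. HBEGF was lowest, with 8.33-fold and 34 fragments (23.5 to 47.5). In 4 of 8 windows, those of EGFR, MET, EPHA2 and AREG, the peak over the 5′ end was also the one with the highest fold. How many starts of all genes carry such a peak was not analysed here, since gene positions in hg19 were given only for these 8.

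**Figure D2:**
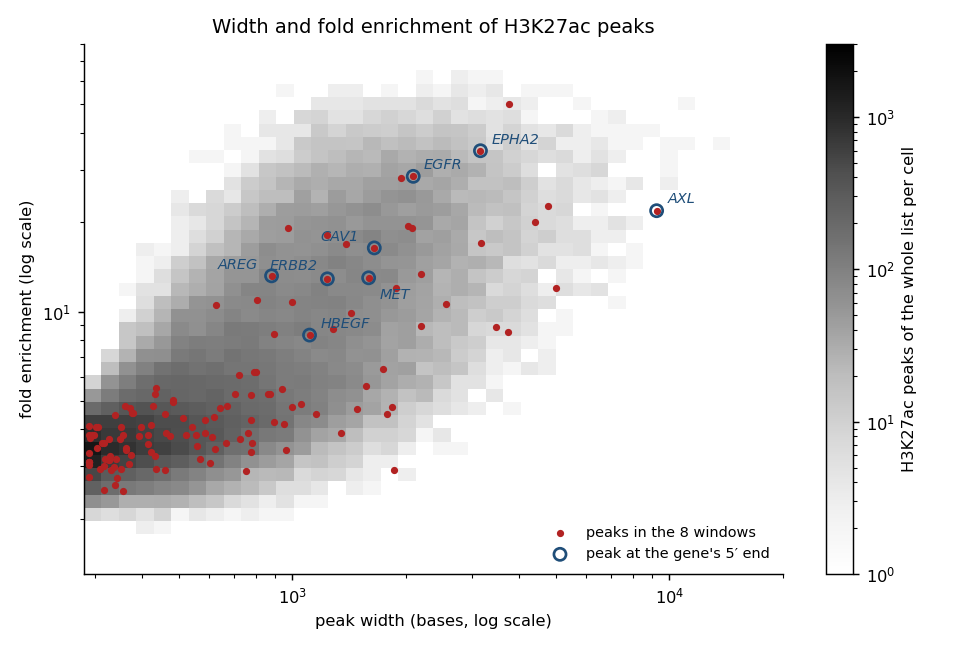
Width in bases (x, log scale) and fold enrichment (y, log scale) of H3K27ac peaks: grey cells count all 50364 peaks of the list, red points are the 134 peaks in the 8 windows, and blue rings mark the peak at each gene's 5′ end. AXL lies at the far right at 9257 bases, and most red points lie in the dense corner of narrow, weak peaks.

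EGFR (chromosome 7, 55087000 to 55275000, plus strand) carried H3K27ac peaks from its 5′ end to 174.1 kb into the gene, with stretches free of peaks between them. They covered 18.9% of the gene interval. Its window held 50 H3K27ac peaks, 46 of them with a summit inside the gene interval. Of the 50 peaks, 41 had a fold under 5, and 4 had a fold of 10 or more. Low folds are common in the whole list too: its median was 4.55, against 3.71 in this window. A fold of 10 or more was reached by 20.6% of the list, and its share under 5 was not analysed here. The strongest were the peak over the 5′ end (55086161 to 55088253) and one deep in the gene (55200719 to 55202658). The second had its summit 114.1 kb from the 5′ end, with 28.3-fold and 186 fragments (160 to 215), so the 2 had almost the same fold. Next to it lay a peak of 3723 bases with 8.54-fold. Another block was the 5007-base peak at 55130200 to 55135206, 46.3 kb into the gene, with 12-fold and 78 fragments (61.7 to 97.3). It was among the widest 0.584% of the list. A cluster of 10 weaker peaks lay between 161.4 and 174.1 kb, the strongest with 6.27-fold. Upstream, a peak 33.4 kb before the 5′ end had 10.9-fold.

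The EGFR window held 4 CTCF peaks, or 13.9 per Mb, close to the 12.1 per Mb of the autosomes. The only CTCF peak inside the gene interval (55212129 to 55212318) had 4.94-fold from 21 fragments (13.0 to 32.1), and 88.4% of the list ranks at or above its fold. The next CTCF summit upstream of the 5′ end was 177 kb away and had 10.2-fold. The CTCF-free gap around the 5′ end thus measured 303 kb. Gaps at least that long between neighbouring CTCF summits held 37.4% of all bases in such gaps, so many positions in the genome lie in one. Downstream of the gene, 3 CTCF peaks stood between 231.1 and 236.4 kb from the 5′ end, with 6.19-fold, 18.8-fold and 14.4-fold. The 18.8-fold peak overlapped a small H3K27ac peak of 482 bases.

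ERBB2 (chromosome 17, 37844000 to 37885000, plus strand) had its highest H3K27ac folds beyond its 3′ end. The peak over its 5′ end (37843765 to 37845003) had 12.9-fold and 53 fragments (39.7 to 69.3). ERBB2 is known to use more than 1 start, and its neighbour PGAP3 lies beside its 5′ end. A further peak inside the gene (37855797 to 37857080) had 8.74-fold and 41 fragments (29.4 to 55.6), and another at 18.0 kb had 3.88-fold. Past the 3′ end, towards MIEN1, GRB7 and IKZF3, 3 peaks had 19.1-fold, 17.1-fold and 19.4-fold, at 42.6, 50.4 and 67.1 kb from the 5′ end. The first of these had 95 fragments (76.9 to 116), an interval that does not overlap that of the peak over the 5′ end. The 17.1-fold peak had 81 fragments (64.3 to 101) and the 19.4-fold peak 80 (63.4 to 99.6). Both of these intervals overlap that of the peak over the 5′ end. Overlap of intervals is no test of a difference, and none was made. MIEN1 and GRB7 are co-amplified with ERBB2 in many breast cancers.

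The ERBB2 window was rich in CTCF, with 8 peaks in 141 kb or 56.7 per Mb. Of the 100 kb bins, 1.98% held 6 or more CTCF summits, which is this density per 100 kb rounded up. The strongest CTCF peak of all 8 windows lay here, 33.7 kb upstream, with 27.8-fold, 714 bases and 121 fragments (100 to 145). It lay 0.210 kb from a weak H3K27ac peak without overlap. Inside the gene interval, CTCF peaks were weaker, at 4.04-fold and 8.33-fold. The CTCF peaks at 42.9 kb (20.2-fold) and 66.6 kb (21.2-fold) coincided with the strong acetylated peaks past the 3′ end, with 86.2% and 100% of their bases under H3K27ac.

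MET (chromosome 7, 116312000 to 116438000, plus strand) had less of its window under acetylation (3.00%) than any of the 8 genes but AREG. That level was still reached by only 13.4% of the 100 kb bins. The peak over its 5′ end (116311674 to 116313267) had 13.0-fold and 74 fragments (58.1 to 92.9). The other 8 peaks of the window had between 2.74-fold and 5.46-fold. A group of 4 lay between 15.9 and 20.3 kb into the gene, and beyond 35.2 kb the gene interval held a single peak, at 104.6 kb with 3.45-fold. In the gene interval 4.63% of bases were acetylated, and 0 in the 50 kb downstream. A CTCF peak of 10.3-fold and 48 fragments (35.4 to 63.6) lay within the acetylated peak over the 5′ end, with all its bases under H3K27ac. The MET promoter printed above holds 2 GC boxes and 0 matches to the CTCF core. It was not placed in hg19, so it may not hold the bases under this CTCF peak, whose own sequence was not searched. From the CTCF peak at the 5′ end the next CTCF summit was 115 kb downstream, with 4.03-fold.

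AXL (chromosome 19, 41725000 to 41768000, plus strand) began within the broadest peak of the 8 windows. That peak (41724088 to 41733344) spanned 9257 bases and was among the widest 0.0794% of the list. Its summit lay 7.0 kb past the 5′ end of the interval. Another 12 weak peaks with 2.91-fold to 4.72-fold followed inside the gene. The highest fold of all 8 windows, 50.1 with 283 fragments (251 to 318), belonged to a peak of 3765 bases past the 3′ end of AXL (41770130 to 41773894), on the side of HNRNPUL1, a gene for an RNA-binding protein. It ranked 94 in the list. A peak of 18.1-fold stood between it and AXL. AXL had 0 CTCF summits inside its gene interval. Upstream of it stood CTCF peaks at 14.6 kb (21.7-fold) and 13.0 kb (4.61-fold) from the 5′ end. Just past the 3′ end stood one of 17.6-fold, which shared 16.1% of its bases with the 18.1-fold H3K27ac peak. The strongest CTCF peak of the window, with 26.9-fold, lay 89.6 kb from the 5′ end and had 49.8% of its bases under H3K27ac.

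EPHA2 (chromosome 1, 16451000 to 16483000, minus strand) had more H3K27ac peaks of at least 10-fold than any other of the 8 windows. There were 8 such peaks among its 20, against 4 each at EGFR and ERBB2. It did not lead in peaks passing the −log10 q threshold of 10. EPHA2 had 11 of these, whereas EGFR had 15 among its 50 peaks. From the peak over the 5′ end (16480585 to 16483740), acetylation ran 17.2 kb into the gene in 5 peaks with 8.38-fold to 34.9-fold. The widest of these spanned 4400 bases, with 20.1-fold and 83 fragments (66.1 to 103). Towards ARHGEF19, upstream of EPHA2, the widest peak of the window spanned 4759 bases at 16498789 to 16503547. It had 22.7-fold and 94 fragments (76.0 to 115), with its summit 19.3 kb before the 5′ end. The rest of the gene interval, towards the 3′ end, held no H3K27ac peak. A weak CTCF peak (6.04-fold, 20 fragments, 12.2 to 30.9) lay inside the acetylated peak over the 5′ end. A stronger one of 19.5-fold lay 31.5 kb upstream, 0.971 kb beyond the last H3K27ac peak of the block. The strongest CTCF peak of the window, with 21.8-fold, lay past the 3′ end, 77.5 kb from the 5′ end.

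CAV1 (chromosome 7, 116165000 to 116201000, plus strand) had 3 H3K27ac peaks, and none past the first part of the gene. The peak over the 5′ end (116164711 to 116166360) had 16.4-fold. A stronger one of 19.1-fold and 112 fragments (92.2 to 135) lay 25.1 kb upstream, on the side of CAV2, and one of 4.50-fold lay 13.0 kb upstream. The Poisson interval of the 25.1 kb peak overlaps that of the 5′ peak (69.7 to 107), which is no test of a difference. At the 3′ edge of the peak over the 5′ end lay a strong CTCF peak (116166131 to 116166489) with 26.7-fold and 116 fragments (95.9 to 139), within the top 2.38% of its list. It shared 64.1% of its bases with H3K27ac. The next CTCF summit upstream of the 5′ end was 183 kb away. Downstream of that CTCF peak, no H3K27ac peak was found in the window, and 3 CTCF peaks between 64.3 and 73.5 kb had 6.16-fold to 6.58-fold.

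The CAV1, MET and EGFR windows all lie on chromosome 7, and their H3K27ac peaks had a higher local background than those of the other windows. Median background of H3K27ac peaks over the genome-wide level was 1.6 at EGFR, 1.96 at MET and 1.54 at CAV1, against 1.00 to 1.22 in the other windows. Over all H3K27ac peaks of chromosome 7 it was 1.38, and over the whole list 1.22. A higher background lowers a fold for the same number of fragments; its part in the order of the genes was not tested.

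AREG (chromosome 4, 75311000 to 75321000, plus strand) had the lowest share of its widened window under acetylation (1.18%). Within its short gene interval the share was 10.7%, above those of HBEGF (9.33%), ERBB2 (8.87%), MET (4.63%) and CAV1 (3.78%). The peak over the 5′ end (75310766 to 75311646) had 13.2-fold and 54 fragments (40.6 to 70.5), and the only other peak of the window, 7.9 kb into the gene, had 3.35-fold and 13 fragments (6.92 to 22.2). No CTCF peak lay in the window. The nearest CTCF summits were 68.2 kb upstream (4.21-fold) and 86.8 kb downstream (6.79-fold). The AREG promoter printed above holds a match to the CTCF core. In hg19, AREG is known to have a near-identical second copy on the same chromosome, named AREGB and listed by RefSeq for GRCh38 as a synonym of AREG. Reads from such a pair can be split or dropped in mapping, so the AREG values are uncertain. How the authors' mapping treated them is not given in the sources used here. Farther along the chromosome, 170 kb from the AREG 5′ end, a peak of similar width (75480558 to 75481469, 912 bases) had 6.94-fold and 28 fragments (18.6 to 40.5).

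HBEGF (chromosome 5, 139712000 to 139726000, minus strand) combined the weakest acetylated 5′ end with the densest CTCF of the 8 windows. Its 8 CTCF peaks lay in a window of 114 kb and made 70.2 per Mb. Of the 100 kb bins, 0.530% held 8 or more CTCF summits, which is this density per 100 kb rounded up. The density lies barely above the next lower whole number, so the share of bins about as dense is larger. Of the 8 CTCF peaks, 3 lay at the 5′ end, with 3.66-fold, 8.90-fold and 16.4-fold. The 16.4-fold peak (139726231 to 139726543) had 57 fragments (43.2 to 73.9) and shared 58.5% of its bases with the H3K27ac peak there. The HBEGF promoter printed above holds a CTCF core match and 5 GC boxes, but it was not placed in hg19 against these peaks. The other 5 CTCF peaks lined up between 5.5 and 26.7 kb upstream, towards SLC4A9, the strongest with 26.2-fold and 92 fragments (74.2 to 113). On that side 1.57% of the 50 kb flank was acetylated. The strongest H3K27ac peak of the window lay on the other side, 43.6 kb past the 5′ end and towards PFDN1, with 16.9-fold and 95 fragments (76.9 to 116). The widest H3K27ac peak, of 1740 bases with 6.41-fold, lay on the same side, 47.5 kb past the 5′ end.

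**Figure D3:**
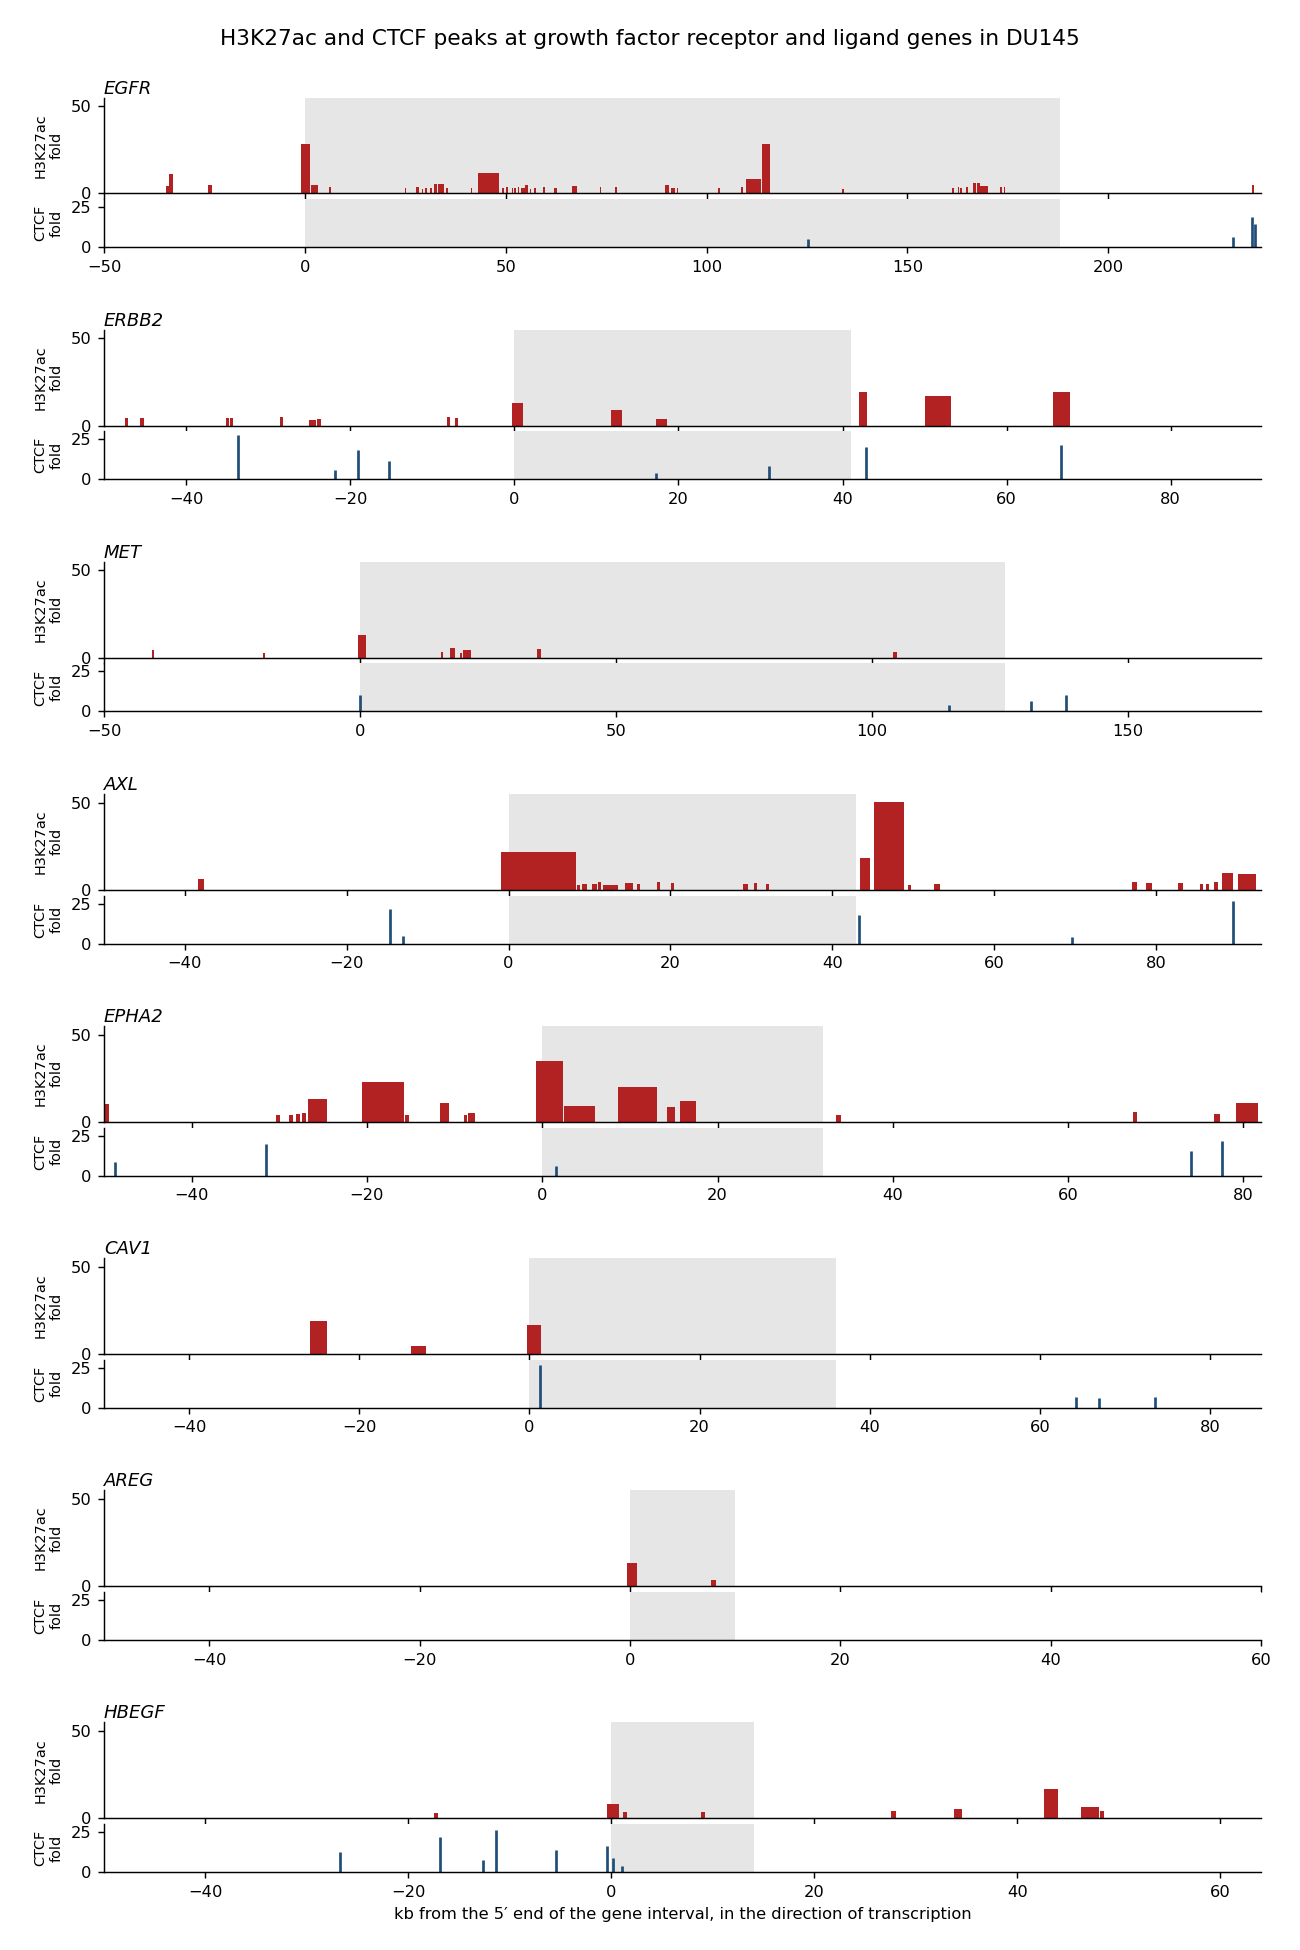
H3K27ac peaks (red bars, drawn over their width) and CTCF summits (blue lines) at the 8 genes, with fold enrichment on the y axes and kb from the 5′ end in the direction of transcription on the x axis; grey marks the gene interval. Each mark has its own y scale, and folds are not comparable between marks. EGFR and AXL carry acetylation far into the gene, MET and CAV1 little, and HBEGF has CTCF lined up on its upstream side.

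The share of CTCF peaks that touched acetylation was higher in the windows than in the whole list, by an amount that depended on the overlap asked for. Of 38 CTCF peaks, 13 shared at least 1 base with an H3K27ac peak, or 34.2% (Wilson 95% interval 21.2 to 50.1), beside 14.2% of all CTCF peaks. The summit lay inside an H3K27ac peak for 7, or 18.4%, beside 8.4% of the list. At least 50% of the peak was under H3K27ac for 7 as well, beside 9.25% of the list. No test was made, and the windows also held more H3K27ac (10.3% of bases) than the chromosomes at large (1.38%). The interval takes the 38 peaks as independent, although many are neighbours in the same window, so it is no measure of an excess over the list. The overlapping peaks were spread over 7 genes: 3 each at ERBB2 and HBEGF, 2 each at AXL and EPHA2, and 1 each at EGFR, MET and CAV1. Counted over acetylated peaks, 12 of 134 touched CTCF, or 8.96% (interval 5.20 to 15), beside 10.1% of the list. A further 5 CTCF peaks lay within 1 kb of acetylation without touching it, and 9 lay more than 10 kb away. The shares of the whole list at these distances were not analysed here, so these counts have no background. The 13 overlapping CTCF peaks had a median of 18.8-fold, and the 25 others a median of 8.33-fold. In the whole list the same medians were 11.2 and 9.39.

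**Figure D4:**
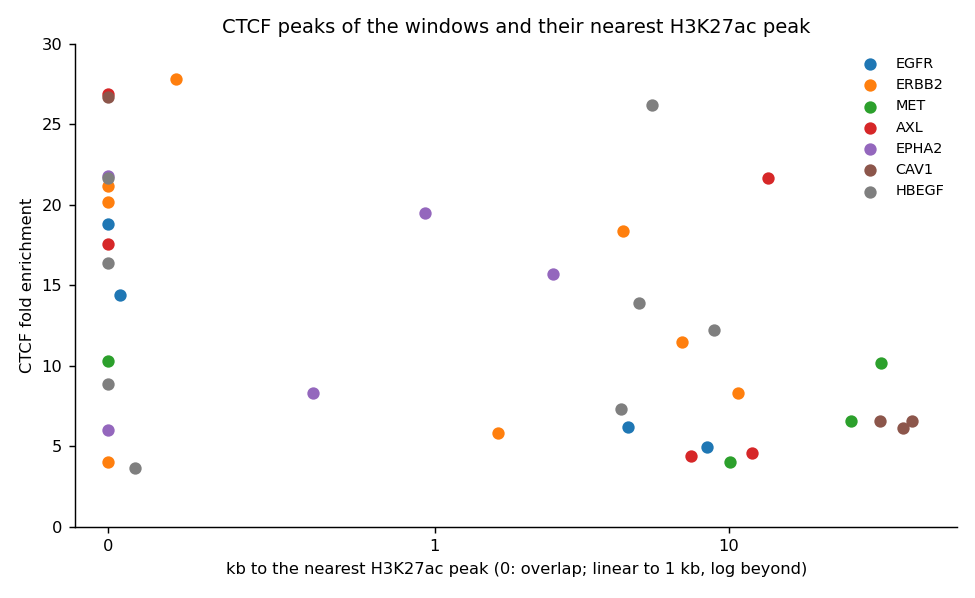
Fold enrichment of the 38 CTCF peaks (y) against the distance in kb to the nearest H3K27ac peak (x, 0 for overlap, linear to 1 kb and log beyond), coloured by gene. Peaks at 0 run from 4.04-fold to 26.9-fold, and the 3 CAV1 peaks far to the right all lie under 7-fold.

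In strength, CTCF peaks of the windows were close to the list. Their median fold was 10.9 against 9.52 in the list, and 30 of 38 had a −log10 q of 10 or more, or 78.9% (interval 63.7 to 88.9), beside 79.8%. Their summits held between 13 and 121 fragments with a median of 53.5, and the list had a median of 45. Density was 29.5 per Mb in the windows and 12.1 per Mb on the autosomes, a background that is not centred on genes. The distance from the 5′ end to the nearest CTCF summit differed among the genes. MET and HBEGF had a CTCF summit within 1 kb of the 5′ end, and CAV1 and EPHA2 within 10 kb. EGFR, ERBB2, AXL and AREG had none within 10 kb. The share of all gene starts with CTCF this near was not analysed here, so these counts have no background. The 5′ ends are rounded, and further RefSeq starts of these genes were not placed in hg19. Inside the gene intervals, which make up 38.0% of the window bases, lay 8 of 38 CTCF summits and 79 of 134 H3K27ac summits. EGFR held 46 of those 79. Without EGFR the intervals made up 30.1% of the bases and held 7 of 34 CTCF summits and 33 of 84 H3K27ac summits.

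Joining H3K27ac peaks across gaps up to the default stitching distance of super-enhancer callers gave 27 acetylated domains that touched the windows, out of 18213. Domains were ranked by fold enrichment times width, and those past a slope of 1 on the scaled ranked curve are called large. Of the 27 domains 4 were large, beside 4.3% of all domains (784). The AXL domain (41724088 to 41778320) ranked 64, with 17 peaks over 54.2 kb and 1 CTCF summit. It includes the strong peak on the side of HNRNPUL1. The EPHA2 domain (16465453 to 16513337) ranked 73, with 15 peaks over 47.9 kb and 1 CTCF summit. The EGFR domain (55111816 to 55202658) ranked 325, with 32 peaks over 90.8 kb and 0 CTCF summits. It lies inside the gene, and the domain over the EGFR 5′ end was separate from it, with rank 1804. EGFR had no large domain when peaks were joined within 5 kb or when only those with a −log10 q of 10 or more were kept. The fourth lay at the downstream end of the AXL window, ranked 392, had 5 CTCF summits and reached past the window to 41874501. ERBB2 came closest without a large domain, with rank 911 past its 3′ end. The domains over the 5′ ends of CAV1, ERBB2, MET, AREG and HBEGF ranked 1635, 3719, 5988, 7916 and 8442.

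**Figure D5:**
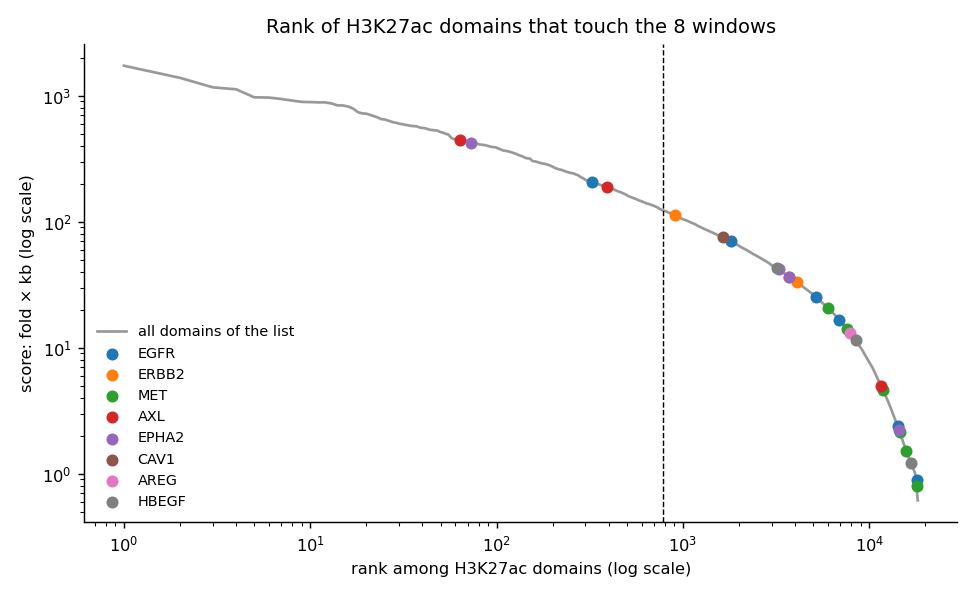
Score in fold times kb (y, log scale) against rank (x, log scale) of all 18213 H3K27ac domains (grey line), with the 27 domains that touch the 8 windows as points coloured by gene. The dashed line marks the last of the 784 large domains, and 4 points, 2 of AXL and 1 each of EPHA2 and EGFR, lie to its left.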

How the data were processed

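The submitters' processing notes name Bowtie, MACS2 and hg19. Their versions, the settings and which input served as background: not given in the sources used here. There is 1 peak list per mark, from 1 library. The authors deposited, per peak, a score in whole numbers, the fold enrichment as a linear ratio, and the −log10 p and −log10 q. In both lists −log10 q starts at 1.31. Positions count from 1.

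Gene intervals are those of the selection rule, rounded to 1 kb. Strand, neighbour names and promoter sequences came from RefSeq tables of GRCh38.p14, whose coordinates were not set against hg19. All 8 symbols matched, with 12 promoter entries. Overlap was counted from 1 shared base. Whole fragment numbers at a summit were solved from the deposited fold and −log10 p (tolerance 0.002, CTCF fragment scale 0.911), which gave a solution for 100% of peaks in each list. The most frequent solved background, 2.18 fragments for CTCF and 3.18 for H3K27ac, is called genome-wide. Library totals are not part of peak values, so depth is given as fragments at summits, and intervals cover counting error only. The functions were tested on simulated data. Python 3.11.15, pandas 2.3.3, NumPy 2.4.6 and SciPy 1.17.1 were used.

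All 8 members are named by rule, each with its strongest, widest and 5′-end peaks. Members, lists and windows were chosen with earlier results of these data known. Alternatives were stricter peaks, other window widths, other overlaps and other domain settings. A list of related pathway genes, the cell type markers and the count of gene starts near H3K27ac over all genes need hg19 gene positions and were not analysed here, so the identity of the cells was not checked against markers.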

Additional observations from a re-analysis of the deposited data

How the results depend on the processing

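No paired analysis was possible because each mark has 1 library. Of 23 other settings, 10 were counted as within limits (1.5 times for a number of peaks or windows, the Wilson interval for the overlap share) and 13 as moved. Coverage of the 8 windows was counted as moved in every setting. This includes 7.08%, 7.28% and 8.48%, which lie within 1.5 times of the reported 10.3%. With a −log10 q of 10 or more, 48 H3K27ac peaks were left and covered 7.08% of the windows. With peaks at or above the median fold, 21 CTCF and 56 H3K27ac peaks were left, and coverage was 7.28%. Gene intervals without widening held 9 CTCF and 80 H3K27ac peaks, with 15.8% coverage and an overlap of 55.6% (5 of 9 CTCF peaks). Widening by 100 kb gave 62 CTCF peaks and 8.48% coverage. Overlap was 18.4% both with the CTCF summit inside H3K27ac and with at least 50% of the CTCF peak covered. Fewer or more peaks follow from these settings by construction. EGFR lost its large domain with joining within 5 kb and with a −log10 q of 10 or more, and ERBB2 gained one with joining within 25 kb. AXL and EPHA2 had one in every domain setting run. The coverage of single windows was recomputed after seeing the data. EPHA2, AXL and EGFR led in this order under both stricter peak choices and without widening, but EGFR (13.7%) came to 8.04% and 7.77% and AXL (20.8%) to 13.1% and 13.6% with stricter peaks, and AREG (1.18%) to 10.7% without widening. The 4 settings for peaks near annotated gene starts were not run. Weak peaks rest on as few as 12 fragments in these windows, which limits their ranking.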
